A study of Phalaenopsis x intermedia with 4 samples.

Results

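The smallest chromosomes of the Phalaenopsis assembly, 13 to 19, were described here through their single nucleotide polymorphisms (SNPs) in an interspecific F1 population. An entry of the deposited table of genotype calls belonged to the set when it lay on 1 of these 7 chromosomes, had exactly 2 base alleles and was missing in more than 20% of the 92 plant columns. Of 115866 entries in all, 20095 met this rule, against 85778 on chromosomes 1 to 12. The study crossed P. aphrodite (Pa) with P. equestris (Pe), and the F1 progeny are called P. Intermedia. Leaf DNA was cut with Hinp1I or ApeK1, each paired with HaeIII, and sequenced as 4 multiplexed libraries, 2 plates for each enzyme, with 90 progeny and both parents as columns. The table merges all libraries and gives neither read depth nor the plate of a plant. The tests here therefore count plants, and how far read depth limits the calls is unknown. Enzyme and plate effects cannot be told apart from the plants. All progeny descend from 1 cross, so every value describes the chromosomes of these parents only.

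Genotyping by sequencing (GBS) reads only the ends of restriction fragments, so SNPs come in small groups and their density follows cut sites and mappable sequence. In an F1 of outbred parents, a SNP heterozygous in 1 parent should give heterozygotes and 1 kind of homozygote in equal numbers, whereas a SNP fixed for different alleles in the parents should be heterozygous in all progeny. Linkage disequilibrium (LD), the correlation of genotypes between SNPs, comes in such a family from a single round of meiosis in each parent. Neighbours from the same parent therefore stay correlated over long stretches, and SNPs of different chromosomes should be nearly independent. No source used here names the genome build, and positions are those of the deposited table. SNP names carry the chromosome and the position in bp.

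The progeny fell into a well-called and a sparse part. In 60 progeny, between 0.828% and 40.1% of all entries were missing (median 2.45%), and in the other 30 at least 69.02% were missing. At the SNPs of chromosomes 13 to 19, 95.5% of the calls of the 60 plants were present, against 1.49% of those of the other 30. Unless stated, values come from the 60 plants. Of the 20095 SNPs, 20035 were called in at least 20 of them and showed more than 1 genotype, 58 were called in fewer, and 2 showed 1 genotype only. SNPs just inside the rule, missing in 19 plants, numbered 53 and had 13.3% heterozygous calls. Those just outside, missing in 18 plants, numbered 71 and had 12.6%.

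A group of 4 progeny columns stood apart from the rest, and the 2 parental columns did not. PaPe52 with PaPe76 and PaPe63 with PaPe89 lay more than 6 median absolute deviations from the median on the first 2 coordinates of a multidimensional scaling. On chromosomes 13 to 19 the mean difference in allele dosage, scaled to lie between 0 and 1, was 0.171 between PaPe52 and PaPe76 and 0.0912 between PaPe63 and PaPe89, against 0.650 to 0.655 across the pairs. Any 2 of the other 56 progeny differed by 0.222 to 0.471 (median 0.348), and the Pa and Pe columns differed by 0.254, which lay inside the range of sibs. At 1081 SNPs (5.47%, against 5.38% on chromosomes 1 to 12) at least 90% of the 56 plants were heterozygous. Among the 1079 of these called in all 4 outlying plants, 1044 (96.8%) had the 2 pairs homozygous for opposite alleles, while the Pa column was heterozygous at 93.6% and the Pe column at 98.2%. The genotypes in the Pa and Pe columns thus went against their labels at these SNPs, and the outlying pairs carried the opposite homozygotes. Over all 20095 SNPs, however, the 2 pairs were homozygous for opposite alleles at 5137 (25.6%). Most of those 5137 were not heterozygous in at least 90% of the 56 plants, although a SNP fixed for different alleles in the parents should be. The labels were kept as deposited. Where a result changes without the outlying plants, its value over the other 56 is given beside it. Where the outlying pairs stand in for the parents, class A means a SNP heterozygous in PaPe52 and PaPe76 and homozygous in PaPe63 and PaPe89, and class B the reverse. Class A held 1386 and class B 1166 of the 20095 SNPs.

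SNP density was higher on chromosomes 13 to 19 as a set, but it varied more among them than between the sets. There were 123.1 SNPs per Mb up to the last SNP of each chromosome on chromosomes 13 to 19, against 88.1 on chromosomes 1 to 12. The latter value includes 89.5 and 45.7 on chromosomes 1 and 2, the longest at 257 and 224 Mb. Chromosomes 3 to 12 ran from 62.1 to 134.6. Chromosome 16 had 188 SNPs per Mb (4907 SNPs over 26.1 Mb), chromosome 17 had 186 (3710 over 19.95 Mb) and chromosome 18 had 177 (2379 over 13.5 Mb). These 3 values exceeded that of every chromosome from 1 to 12, where the highest was 134.6 on chromosome 5. Chromosome 19 (122.8, 1631 SNPs over 13.3 Mb) and chromosome 15 (120.0, 3474 over 28.9 Mb) lay between. Chromosome 13 (68.8, 2250 over 32.7 Mb) and chromosome 14 (60.6, 1744 over 28.8 Mb) were the sparsest of the 7, and density did not follow length in order. A chromosome has no replicate, so these are counts without a test. For each of the 7 chromosomes the paper lists a shorter length than the last position used here. By its average distances, over SNPs of any missing rate, chromosome 19 is the densest of all chromosomes. The ranking of density thus depends on the length that is used.

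Most of the difference lay in the number of sequenced fragments and not in SNPs per fragment. With SNPs no more than 64 bp from the next counted as 1 fragment, there were 7754 fragments, or 47.5 per Mb, against 34.2 per Mb on chromosomes 1 to 12. The latter value includes 35.7 and 17.7 on chromosomes 1 and 2, and chromosomes 3 to 12 ran from 23.5 to 52.5. Each fragment held 2.59 SNPs on average on chromosomes 13 to 19 and 2.57 on chromosomes 1 to 12, and the range over the 7 chromosomes was only 2.54 to 2.77. Fragments per Mb ran from 23.7 on chromosome 14 to 73.4 on chromosome 16. Stretches without SNPs were short on most of the 7 chromosomes. Of windows of 100 kb, 83.9% held a SNP on chromosomes 13 to 19, against 61.8% on chromosomes 1 to 12, with 99.3% on chromosome 18, 98.1% on chromosome 16 and 68.9% on chromosome 13. The value for chromosomes 1 to 12 includes 45.2% and 45.1% on chromosomes 1 and 2, whereas chromosomes 5 to 8 had 83.2% to 86.9%. The longest stretch with no SNP was 661 kb, on chromosome 13, against 17485 kb on chromosome 1 and 492 to 722 kb on chromosomes 5 to 12. Transitions made up 60.8% of SNPs, against 60.6%, so the kind of base change was alike in both sets.

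**Figure D1:**
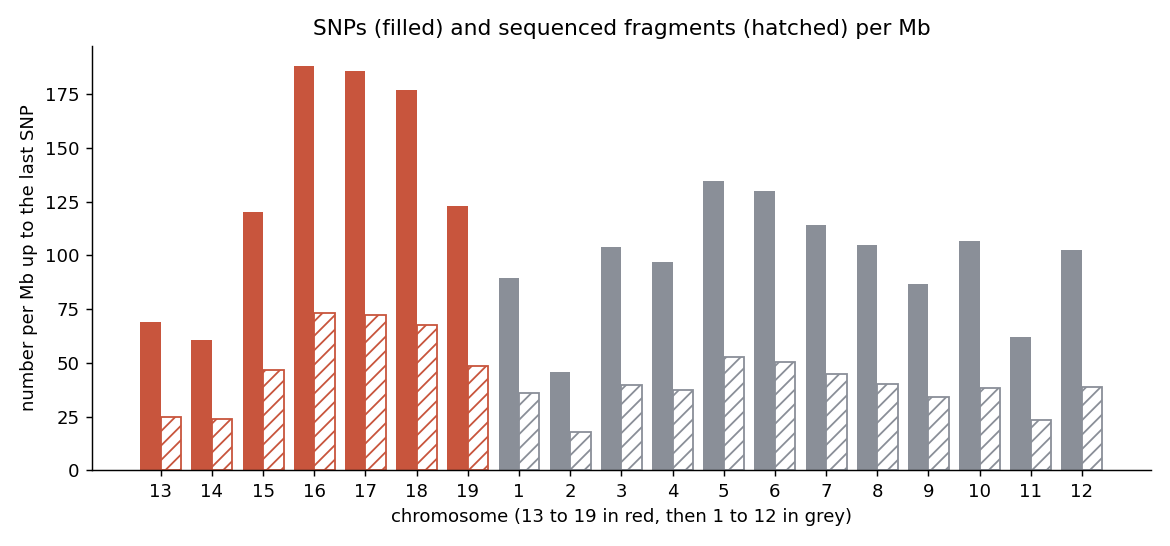
SNPs (filled bars) and sequenced fragments (hatched bars) per Mb up to the last SNP, for chromosomes 13 to 19 (red, left) and 1 to 12 (grey, right). Chromosomes 16, 17 and 18 stand above all others at 177 to 188 SNPs per Mb, and chromosomes 13 and 14 are near the low end at 68.8 and 60.6.

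Heterozygosity of the 7 chromosomes differed within the same plants. The share of heterozygous calls per plant on chromosomes 13 to 19 ran from 14.7% to 32.6% (median 27.1%), against 14.3% to 32.2% (median 27.0%) on chromosomes 1 to 12, so the ranges were nearly the same. The means were 26.15% ± 3.94 on chromosomes 13 to 19 and 26.41% ± 3.93 on chromosomes 1 to 12 (SD, n = 60 plants). The difference within plants was small, -0.262 percentage points (SD 0.440), lower in all but 14 plants, with p = 5e-05 in a two-sided paired permutation test over plants that turned the signs of the differences 100000 times. It stayed negative without the outlying plants (-0.338, p = 1e-05, the smallest p these permutations can give), and with 1 SNP per fragment it was -0.507 (p = 1e-05). With the SNPs of few missing calls added on both sides it was -0.113 and did not pass in the permutation test (p = 0.0867).

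The small mean difference came from larger differences of opposite sign. Single chromosomes from 1 to 12 also varied, with means from 23.2% on chromosome 11 to 28.1% on chromosome 1. The means of the 7 chromosomes all lay inside that range. Chromosome 16 had 27.8% ± 4.39 and chromosome 13 had 27.7% ± 4.53 heterozygous calls (SD, n = 60 plants), which were 1.39 and 1.33 percentage points above the same plants' chromosomes 1 to 12 and higher in 56 and 53 of 60 plants. Chromosome 14, at 23.7% ± 3.66, differed by -2.67 points, and only 3 plants were higher. Chromosome 19, at 24.2% ± 4.01, differed by -2.21 points with 4 plants higher, and chromosome 17, at 24.9% ± 3.87, by -1.54 points with 2 plants higher. The paired permutation test adjusted over 7 chromosomes by the Benjamini-Hochberg method gave 1.4e-05 for each of these 5, whose unadjusted p was the smallest that the permutations can give. The plants are sibs scored at the same SNPs, so these p measure spread between plants and not between chromosomes or SNPs.

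Chromosomes 18 and 15 lay closer to the rest of the genome over all SNPs, and their calls depended on the 4 outlying plants. Chromosome 18 (25.7% ± 4.17) differed by -0.678 points over 60 plants (adjusted permutation p = 4.67e-05) and by -0.173 points over 56 plants, which did not pass (adjusted permutation p = 0.263). With 1 SNP per fragment it differed by -1.64 points (adjusted permutation p = 1.17e-05). Chromosome 15 (26.6% ± 3.68) differed by 0.154 points over 60 plants (adjusted permutation p = 0.2) and, with the sign turned, by -0.461 points over 56 plants (adjusted permutation p = 0.000408). All 4 outlying plants had more heterozygous calls on chromosome 15 than on chromosomes 1 to 12. For the other 5 chromosomes the difference over 56 plants kept its sign and its call, at -2.85 to 1.29 points. Between the 7 chromosomes themselves, 19 of 21 pairs differed in the paired test, and 18 without the outlying plants. The pairs that did not were 13 with 16 (-0.0607 points, SD 1.67, adjusted permutation p = 0.778) and 14 with 19 (-0.452 points, SD 2.11, adjusted p = 0.108). The largest difference was that of chromosome 14 minus chromosome 16, at -4.05 points (SD 2.19), and 2 of 60 plants had more heterozygous calls on chromosome 14.

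**Figure D2:**
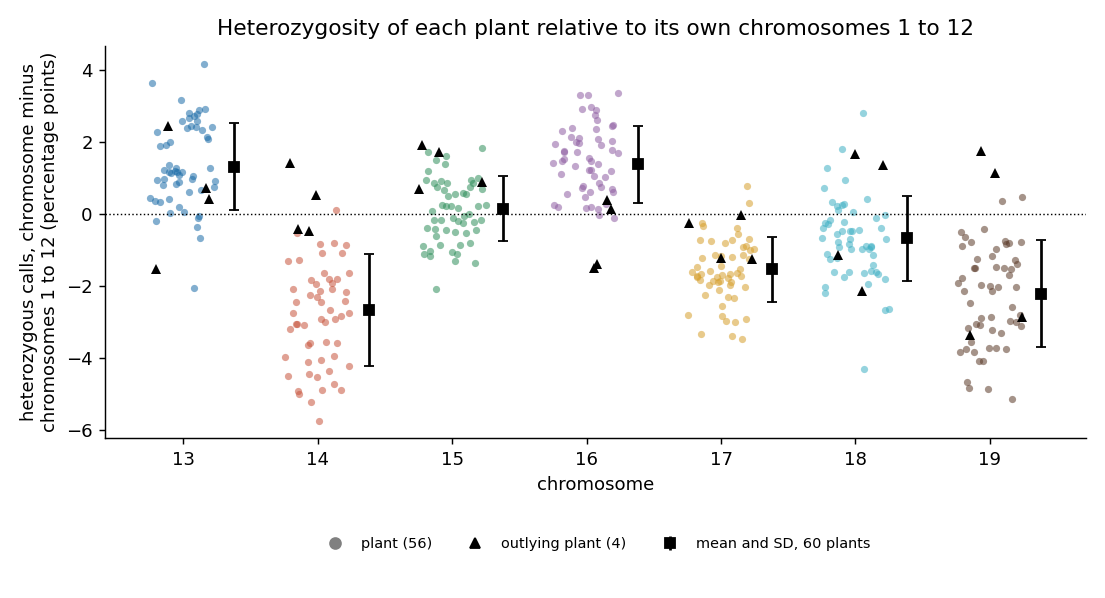
Share of heterozygous calls on each of the 7 chromosomes minus that on chromosomes 1 to 12 of the same plant, in percentage points (y axis). Dots are 56 plants, triangles the 4 outlying plants, and squares with bars the mean and SD over 60 plants. Chromosomes 13 and 16 lie above 0, chromosomes 14, 17 and 19 below, and chromosome 15 around it.

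The low heterozygosity of chromosomes 14, 17 and 19 went together with more SNPs at which both homozygotes were the 2 most frequent genotypes, a pattern that neither cross type of an F1 should give. Such SNPs made up 49.9% on chromosome 17, 49.4% on chromosome 14 and 48.1% on chromosome 19. They made up 45.4% on chromosome 18, 44.8% on chromosome 15, 44.3% on chromosome 16 and 40.4% on chromosome 13. Chromosomes 13 to 19 as a set had 45.8%, against 45.4% on chromosomes 1 to 12. Over these 7 chromosomes the order of heterozygosity was nearly the reverse of the order of this share. Both values come from the same calls, so this is a description. SNPs heterozygous in at least 90% of the 56 plants moved the same way, from 4.04% on chromosome 19 and 4.54% on chromosome 14 to 6.15% on chromosome 15 and 6.25% on chromosome 16.

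Segregation by the Pa and Pe columns was distorted at more than 50% of tested SNPs in the whole genome. A SNP was tested with an exact two-sided binomial test against equal classes, adjusted over all SNPs tested on chromosomes 1 to 19, and counted as distorted at an adjusted p under 0.05. On chromosomes 1 to 19, 59.8% of 31554 tested SNPs were distorted, and 58.3% on chromosomes 1 to 12 by the same rule. With exactly 1 of Pa and Pe heterozygous, 1840 of 3536 SNPs on chromosomes 13 to 19 were distorted (52.0%), against 50.1% on chromosomes 1 to 12, from 46.5% on chromosome 15 to 65.8% on chromosome 13. At these SNPs, 18.1% of the progeny calls were homozygotes that the parental calls do not allow, against 16.3% on chromosomes 1 to 12. With Pa and Pe both heterozygous, 1321 of 1529 SNPs were distorted (86.4%, against 84.9% on chromosomes 1 to 12). In each of them homozygotes for the first listed allele exceeded those for the second, a direction that the table fixes, since the first allele was at least as frequent as the second over all columns at 20095 of 20095 SNPs. The shares for chromosomes 13 to 19 lay near those of the whole genome.

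Classes from the outlying pairs gave a lower background, and the largest share of distorted SNPs lay in class B of chromosome 13. In the 56 plants, 21.4% of 13927 tested SNPs on chromosomes 1 to 19 were distorted, and 20.7% on chromosomes 1 to 12. On chromosomes 13 to 19 the count was 544 of 2547 SNPs of classes A and B (21.4%), and 7.59% of calls were not allowed, against 7.25% on chromosomes 1 to 12. In class A, 204 of 1381 SNPs were distorted (14.8%, against 18.9% on chromosomes 1 to 12), and in class B 340 of 1166 (29.2%, against 23.2%). On chromosome 13 the split was 14 of 166 SNPs in class A (8.43%) and 94 of 133 in class B (70.7%). Outside chromosome 13 the class B share of single chromosomes ran from 16.6% on chromosome 15 to 34.2% on chromosome 14. SNPs of a class are linked and do not count as independent, so the split between classes was not tested.

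The distorted class B SNPs of chromosome 13 lay along its whole length, with 50 of 58 tested SNPs up to 11 Mb, 16 of 21 from 11 to 22 Mb and 28 of 54 beyond 22 Mb. The counts of class A in these stretches were 5 of 76, 1 of 12 and 8 of 78. Of the class B SNPs, 40 lay in 1-Mb windows with fewer than 5 tested SNPs, and 32 of these were distorted. In the 1-Mb window that starts at 4 Mb all 6 tested SNPs were distorted, with a median of 81.1% of plants in the larger genotype class. In the windows from 5 and 6 Mb the counts were 15 of 18 (78.6% in the larger class) and 6 of 7 (76.8%). In the window from 9 Mb they were 8 of 8 (76.8%), and in that from 10 Mb 4 of 6 (83.9%). The larger class was the homozygote in the windows from 4, 5 and 10 Mb, where a median of 18.9%, 21.4% and 16.1% of plants were heterozygous. In the window from 9 Mb it was the heterozygote, at a median of 75.9%. The window from 0 Mb had 6 of 8 (88.9%) and that from 31 Mb 11 of 18 (71.4%), against 1 of 9 in the window from 32 Mb (57.4%) and 2 of 6 in that from 22 Mb (55.6%). Class A SNPs of the same stretch kept to 0 or 1 distorted SNP per window up to 6 Mb, with 57.1% to 61.2% of plants in the larger class. The distortion thus stood at SNPs heterozygous in PaPe63 and PaPe89, in neighbouring windows and with either genotype as the larger class.

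Most distorted SNPs had too many homozygotes. Of the 544 distorted SNPs on chromosomes 13 to 19, 454 had an excess of homozygotes and 90 of heterozygotes, and 31 of the 90 were class B SNPs of chromosome 13. The corresponding counts on chromosomes 1 to 12 were 1882 and 397. The heterozygote share at a class A or class B SNP had a median of 44.4% on chromosomes 13 to 19 and 44.6% on chromosomes 1 to 12, below the 50% of equal classes. On chromosome 17 a run of class B windows from 6 to 9 Mb held 5 of 7, 4 of 9, 14 of 26 and 8 of 19 distorted SNPs, with median heterozygote shares of 70.9%, 51.4%, 62.0% and 60%, above the 44.4% of all class SNPs.

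**Figure D3:**
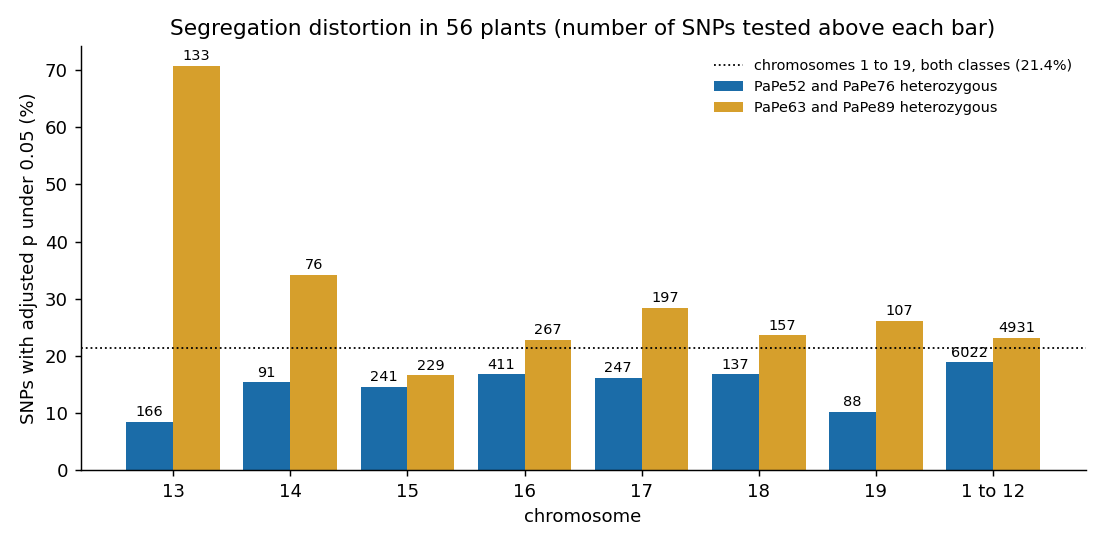
Share of tested SNPs with segregation distortion (adjusted p under 0.05, exact binomial test, 56 plants) on chromosomes 13 to 19 and, at the right, 1 to 12. Blue bars are SNPs heterozygous in PaPe52 and PaPe76 (class A), yellow bars those heterozygous in PaPe63 and PaPe89 (class B), numbers above bars the SNPs tested, and the dotted line the 21.4% of chromosomes 1 to 19. The class B bar of chromosome 13 reaches 70.7%, and that of chromosome 14, next in height, 34.2%.

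At the single SNP with the lowest distortion p of each chromosome, nearly all plants of the 2 tested classes fell into 1 of them. By the parental columns, S15_17070391 (A/G, Pa called R and Pe called A) had 0 heterozygotes and 57 homozygotes, with 3 calls not allowed (adjusted p = 5e-14, exact binomial test). At S13_24988156 (C/A, Pa C and Pe M) the counts were 0 and 55, with 4 not allowed (adjusted exact p = 5e-14). Both parents were called heterozygous at S14_4198684 and S17_9155167, where 55 plants were homozygous for the first allele and 0 for the second (adjusted exact p = 5e-14 each). S16_17981107 had 48 and 0, S18_3128412 had 49 and 1, and S19_5576697 had 52 heterozygotes, 2 homozygotes and 6 calls not allowed (adjusted exact p between 1.75e-12 and 1.52e-11). Where both parents were called heterozygous, heterozygous plants did not enter the test. At these SNPs 60 plants were called at S14_4198684 and S17_9155167, and 58 at S16_17981107 and S18_3128412. With classes from the outlying pairs, S14_26048806, S15_6395260, S16_3722657, S17_13944462, S18_5003275 and S19_4110242 were each heterozygous in all 56 plants (adjusted exact p = 6.34e-15). Pa and Pe were both called heterozygous at these 6. Heterozygosity in all progeny is also the pattern of a SNP fixed for different alleles in the parents, and which applied was not tested. Of the distorted class A and class B SNPs on chromosomes 13 to 19, 34 had at least 90% heterozygotes in the 2 classes compared. On chromosome 13 the SNP was S13_26022793, homozygous in 48 plants and heterozygous in 0, with 7 calls not allowed (adjusted exact p = 9.8e-13).

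LD between neighbouring SNPs was modest when all SNPs were pooled, and it differed little between the sets. With 1 SNP per 5 kb, the mean r2 of dosages at 5 to 50 kb was 0.178 ± 0.006 on chromosomes 13 to 19 and 0.172 ± 0.005 on chromosomes 1 to 12 (jackknife SE over 60 plants, chromosomes weighted equally), a difference of 0.00614 with a 95% interval of 0.0028 to 0.00949. At 5 to 10 Mb it was 0.0610 on chromosomes 13 to 19 and 0.0543 on chromosomes 1 to 12, a difference of 0.00671 (0.00205 to 0.0114). The median r2 at 5 to 50 kb differed in the other direction, by -0.000493. With 1 SNP per 50 kb both differences had intervals that included 0. At these distances the sets therefore differed by little against the effect of the choice of SNPs.

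Single chromosomes differed more, mainly at long distance. At 10 to 20 Mb the mean r2 was 0.119 on chromosome 19, 0.0888 on chromosome 14 and 0.0803 on chromosome 13, against 0.0474 on chromosomes 1 to 12, and the 95% interval of each difference excluded 0. Such values were not particular to these chromosomes. Chromosome 11, the highest of chromosomes 1 to 12, had 0.0788, near the value of chromosome 13. At 5 to 10 Mb chromosome 11 had 0.0840, against 0.0842 on chromosome 14 and 0.0874 on chromosome 13. The last SNP of chromosome 19 lay at 13.3 Mb, so its value rests on 2749 SNP pairs near opposite ends. Chromosomes 14 and 13 had 36198 and 33105 pairs at this distance. Chromosome 19 had a mean r2 of 0.0862 at 1 to 5 Mb and 0.0900 at 5 to 10 Mb, so its LD did not fall with distance beyond 1 Mb. Chromosomes 16 (0.0374) and 17 (0.0299) were below chromosomes 1 to 12 at 10 to 20 Mb, with intervals of the difference that excluded 0. Chromosome 16 also had the lowest r2 at 5 to 50 kb, 0.154 against 0.172 on chromosomes 1 to 12 (difference -0.0176, interval -0.0231 to -0.0121). Without the outlying plants the same 5 chromosomes differed in the same direction at 10 to 20 Mb, with 0.134 on chromosome 19, 0.0969 on chromosome 14, 0.0866 on chromosome 13, 0.0286 on chromosome 16 and 0.0249 on chromosome 17, against 0.0452 on chromosomes 1 to 12. Chromosome 11 alone had 0.0848.

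LD between close SNPs was several times higher within the classes from the outlying pairs than over all SNPs. Over the 56 plants, class A SNPs 5 to 50 kb apart had a mean r2 of 0.648 ± 0.017 on chromosomes 13 to 19 and 0.642 ± 0.014 on chromosomes 1 to 12 (jackknife SE). Class B SNPs had 0.622 ± 0.018 on chromosomes 13 to 19 and 0.602 ± 0.013 on chromosomes 1 to 12. On chromosomes 13 to 19 these values rest on 128 and 79 SNP pairs, all on chromosomes 15, 16 and 17, which alone had enough pairs at this distance. Pairs with 1 SNP of each class had 0.0461 on chromosomes 13 to 19 and 0.0481 on chromosomes 1 to 12. SNPs sorted by the Pa and Pe columns in the same way showed no such separation, with 0.179 for SNPs heterozygous in Pa, 0.138 for those heterozygous in Pe and 0.189 for mixed pairs on chromosomes 13 to 19. Close SNPs were thus in LD within the classes that the outlying pairs define and nearly free of it across them.

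Within classes, LD on chromosomes 13 to 19 decayed more slowly at long range than on chromosomes 1 to 12. At 5 to 10 Mb the mean r2 of class A was 0.161 on chromosomes 13 to 19 and 0.111 on chromosomes 1 to 12 (difference 0.0493, interval 0.0248 to 0.0738), and that of class B was 0.158 and 0.126 (difference 0.0319, interval 0.0119 to 0.0520). At 50 to 500 kb class A did not differ (difference 0.00539, interval -0.00663 to 0.0174) and class B was higher on chromosomes 13 to 19 (difference 0.0342, interval 0.0169 to 0.0514). At 500 to 1000 kb class A was lower on chromosomes 13 to 19 (0.439 against 0.481, difference -0.0421, interval -0.0615 to -0.0226). Distance on the assembly therefore did not order the sets the same way at every range.

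Chromosomes 13, 14 and 19 carried the long-range LD. In class A at 5 to 10 Mb, r2 was 0.306 ± 0.046 on chromosome 13, 0.313 ± 0.026 on chromosome 14 and 0.252 ± 0.052 on chromosome 19, against 0.0312 to 0.102 on chromosomes 15 to 18 and 0.111 on chromosomes 1 to 12. In class B at that distance it was 0.382 ± 0.036 on chromosome 13 and 0.326 ± 0.033 on chromosome 19, but 0.112 ± 0.017 on chromosome 14. The 2 classes differed on chromosome 14 by 0.201 at 5 to 10 Mb (class A minus class B, interval 0.140 to 0.263) and by 0.202 at 10 to 20 Mb (0.121 to 0.282). Chromosome 13 went the other way at 10 to 20 Mb, with 0.260 in class A and 0.475 in class B (difference -0.215, interval -0.348 to -0.0816), where class B is also the class with distorted segregation. Chromosome 18 likewise had less in class A at 10 to 20 Mb, 0.0213 against 0.205 in class B (difference -0.183, interval -0.281 to -0.0857), from 139 and 291 pairs. On chromosomes 15, 16 and 17 the intervals of the difference between classes included 0 in both of these ranges.

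**Figure D4:**
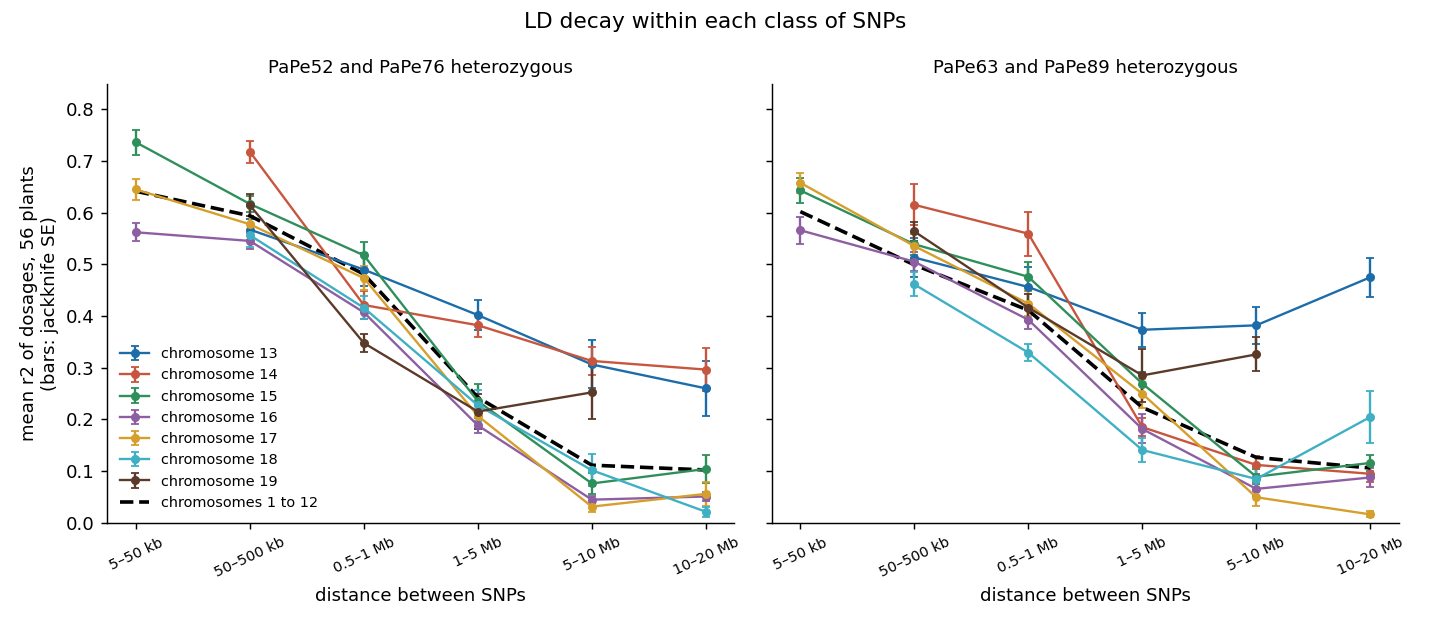
Mean r2 of dosages against the distance between SNPs (categories on the x axis) in 56 plants, for class A (left) and class B (right). Lines with jackknife SE are chromosomes 13 to 19 and the dashed line is chromosomes 1 to 12. At 5 to 10 Mb, LD is below 0.11 on chromosomes 15 to 18 in both classes. At that distance it is above 0.25 on chromosomes 13 and 19 in both classes and on chromosome 14 in class A.

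LD blocks were short when all SNPs were taken and longer within classes, whose SNPs also lay farther apart. A block was a run of at least 3 neighbouring SNPs, 1 per 5 kb, each with r2 of at least 0.5 to the next. Over 60 plants, chromosomes 13 to 19 had 151 blocks holding 11.3% of their SNPs, against 10.4% on chromosomes 1 to 12. Without the outlying plants there were 192 blocks, with 15.3% of SNPs on chromosomes 13 to 19 and 14.3% on chromosomes 1 to 12. Over 60 plants the share ran from 8.13% on chromosome 13 to 14.9% on chromosome 18. The longest block lay on chromosome 19 at 11810302 to 12388866 (579 kb, 6 SNPs). On chromosome 13 it ran from 8217073 to 8635910 (419 kb, 3 SNPs), on chromosome 14 from 1214996 to 1469581 (255 kb, 3 SNPs) and on chromosome 16 from 2662200 to 2903988 (242 kb, 6 SNPs). Those of chromosomes 15 (19753227 to 19924544), 18 (12690892 to 12818558) and 17 (18641537 to 18757673) spanned 171.3, 128 and 116 kb. Over the 56 plants the longest block of chromosome 17 was another one, from 15191903 to 15605418 (414 kb, 8 SNPs), and the share in blocks on chromosome 13 was 12.2%, against 8.13% over 60 plants. No block of all SNPs on the 7 chromosomes reached 1 Mb.

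Within classes most SNPs fell into blocks, of which there were 89 in class A, from 738 SNPs, and 76 in class B, from 595 SNPs, against 4683 SNPs over all. Median block lengths by chromosome ran from 433 to 1641 kb in class A and from 426 to 1076 kb in class B. Class A blocks held 80.9% of the class A SNPs on chromosomes 13 to 19, against 80.1% on chromosomes 1 to 12, and class B blocks 68.4% of class B, against 69.8%. The highest share was 96.3% of class A on chromosome 19, and the lowest was 55.7% of class A on chromosome 18. The longest class A block was that of chromosome 13, from 10825613 to 17392335 (6567 kb, 5 SNPs). Chromosomes 15 (7270208 to 12512891, 23 SNPs) and 19 (7522792 to 12725255, 14 SNPs) had class A blocks of 5243 and 5202 kb. In class B the longest lay on chromosome 15 (21688140 to 26360245, 4672 kb, 6 SNPs) and chromosome 14 (129687 to 4134760, 4005 kb, 9 SNPs). Chromosome 17 had the shortest of the longest blocks, 1649 kb in class A and 1234 kb in class B.

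LD with other chromosomes was present in every pair while the outlying plants were included, and in few pairs without them. The mean r2 over all SNP pairs of 2 chromosomes was tested by permuting the plants of 1 chromosome against the other (one-sided, 100000 permutations, adjusted over all pairs of chromosomes 1 to 19). Over 60 plants all 105 pairs with a chromosome from 13 to 19 passed, as did 100% of all pairs, with a mean r2 of 0.0267 against 0.0169 under permutation. Over the 56 plants 14 of the 105 pairs passed, against a background of 12.9% of all pairs, with a mean r2 of 0.0200 against 0.0182 under permutation. The call of most pairs was thus lost without the 4 outlying plants.

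Chromosomes 14 and 16 formed the strongest pair in both sets of plants. Their mean r2 was 0.0357 over 60 plants and 0.0318 over 56 plants (0.0182 under permutation, adjusted p = 0.000855). By mean r2, the next pairs that passed the same permutation test in the 56 plants were chromosome 19 with 3 (0.0254, adjusted p = 0.00342), 14 with 7 (0.0245, adjusted p = 0.0452), 17 with 12 (0.0242, adjusted p = 0.0105), 15 with 19 (0.0239, adjusted p = 0.049) and 15 with 16 (0.0233, adjusted p = 0.0103). Chromosome 16 passed with 6 partners (14, 15, 1, 4, 7 and 9), chromosome 15 with 3, chromosomes 13, 14, 17 and 19 with 2 each, and chromosome 18 with 0 by this test, although 4 of its 18 pairs had an unadjusted p under 0.05.

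**Figure D5:**
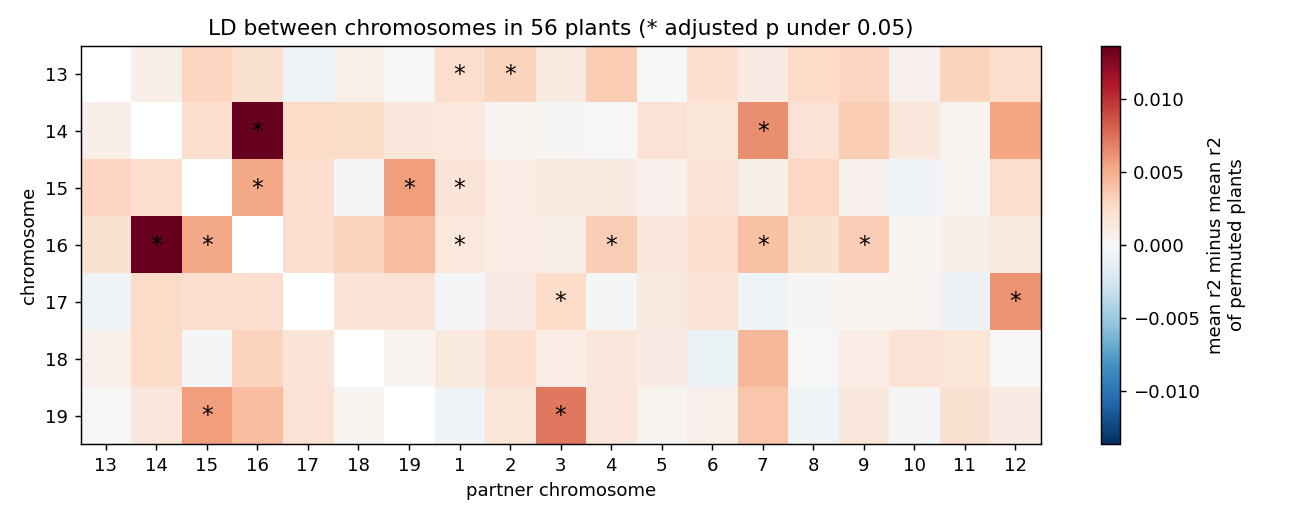
Mean r2 between each of chromosomes 13 to 19 (rows) and every other chromosome (columns, 13 to 19 at the left and then 1 to 12) minus the mean under permutation of plants, in 56 plants. Red is an excess, blank cells are a chromosome with itself, and stars mark an adjusted p under 0.05. Chromosomes 14 and 16 share the darkest cell, and the row of chromosome 18 has no star.

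Windows of 1 Mb showed where these links sat. Over the 56 plants, 151 of 162 windows on chromosomes 13 to 19 had their highest mean r2 with a window of their own chromosome, against 659 of 698 on chromosomes 1 to 12. The first window of chromosome 16 had an r2 of 0.214 ± 0.015 with the window from 1 Mb of chromosome 14 and 0.118 ± 0.014 with its best window on chromosome 16 (jackknife SE). The window from 23 Mb of chromosome 16 and the last of chromosome 14, from 28 Mb, shared an r2 of 0.303 ± 0.040. The best window on the own chromosome gave 0.245 for the window of chromosome 16 and 0.290 for that of chromosome 14. Windows near both ends of chromosomes 14 and 16 thus took part in the LD of this pair. Other such windows were the first of chromosome 13 with chromosome 4 (0.139, against 0.0572 on the own chromosome), that from 13 Mb of chromosome 15 with chromosome 19 (0.125 against 0.0768) and that from 17 Mb of chromosome 16 with chromosome 15 (0.136 against 0.0802). The window from 12 Mb of chromosome 19 had 0.357 with chromosome 3 and 0.309 with its own chromosome. These windows were picked for a higher r2 elsewhere, so the differences are descriptions without a test.

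Neighbouring windows were the best partners on nearly all of chromosome 17 and on a smaller part of the others. On chromosome 17, 19 of 20 windows had their best partner right beside them. On chromosome 14 this held for 8 of 29, and 17 of its windows had the window from 22 Mb as their best partner on the chromosome. That window held only 5 SNPs, with a mean r2 of 0.492 among themselves. For the others the counts were 15 of 26 on chromosome 16, 9 of 14 on chromosome 18, 13 of 29 on chromosome 15, 6 of 14 on chromosome 19 and 10 of 30 on chromosome 13. Together 80 of 162 windows paired with a neighbour, against 311 of 698 on chromosomes 1 to 12. Chromosomes 13, 14 and 19, with the fewest neighbours by share, were those with high LD at 5 to 10 Mb.

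Single SNPs had their closest match on the own chromosome less often than windows. With 1 SNP per 100 kb, the SNP of highest r2 lay on the own chromosome for 599 of 1368 SNPs of chromosomes 13 to 19 (43.8%, Wilson 95% interval 41.2% to 46.4%) and for 50.2% on chromosomes 1 to 12, whose chromosomes also hold more candidates. It ranged from 37.2% on chromosome 15 and 37.5% on chromosome 14 to 52.6% on chromosome 19 and 52.9% on chromosome 17. Without the outlying plants it was 49.5% on chromosomes 13 to 19 and 52.8% on chromosomes 1 to 12. Within class A the share was 89.8% on chromosomes 13 to 19 and 89.2% on chromosomes 1 to 12, and within class B 82.8% and 83.0%, with 71.4% on chromosome 18 as the lowest of the 7. The intervals are too narrow, since linked SNPs are not independent. Most class A and class B SNPs of chromosomes 13 to 19 thus had their closest match on the chromosome that the assembly gives them. These class shares rest on 547 SNPs of class A and 436 of class B, and do not cover SNPs outside the classes.

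Some SNP pairs on different chromosomes carried identical genotype patterns. Among the 56 plants, S14_179987 (C/T) and S16_86858 (A/G), both at the starts of their chromosomes, had r2 = 1.0 over 56 plants, with 29 plants homozygous for the first allele, 0 heterozygous and 27 homozygous for the second at each. S17_148624 and S18_8560836 also matched in full, at 29, 0 and 27. S18_472344 (A/G, 30 homozygous for A and 26 heterozygous) matched S19_1374078 (A/G, 30 homozygous for A and 26 homozygous for G), where the same plants were called heterozygous at 1 site and homozygous at the other. S15_1369060 and S3_24897871 matched at 30 homozygous and 26 heterozygous plants. For chromosome 13 the match of S13_272182 with S1_5512772 rested on 1 homozygous plant against 55 heterozygous. Over 60 plants, the matches of S15_463230, S16_188732 and S17_148884 with S1_808854 rested on the 4 outlying plants, since the other 56 were all heterozygous, and that of S14_598323 with S17_2535081 rested on 6 homozygous plants.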

How the data were processed

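Genotype letters of 92 plants (homozygous, heterozygous or missing), a code with no scale and no normalization, were deposited by the authors as 1 table. The authors mapped the reads with Bowtie 2 and called SNPs with the TASSEL-GBS pipeline at default settings. No source used here names the genome build. The label of the table names a nearest-neighbour imputation and a minor allele frequency of at least 0.05, so some calls may be imputed, and which ones is unknown. Letters were turned into dosages of 0, 1 or 2. Except in the tests between chromosomes, plants missing at either SNP did not enter its r2, and r2 needed 20 plants with calls at both. In those tests each SNP needed 45 calls over 56 plants or 48 over 60, and a missing call took the average dosage of its SNP. Leaving missing calls out there gave an average r2 of 0.0283 over 60 plants, against 0.0267. Standard errors leave out 1 plant at a time, and 95% intervals are 1.96 SE either way. Windows of 1 Mb used 1 SNP per 20 kb and at least 5 SNPs. The number of columns of unknown identity was 0.

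The 7 chromosomes, the rule and the tests were chosen with earlier results of these data known, and the classes from the outlying plants were added after the calls had been examined. Named SNPs are, per chromosome, that with the lowest distortion p and that of the pair with the highest r2 with another chromosome, ties going to more calls and then the lower position, and the longest block. Steps were tested on simulated data. Alternatives concerned allele frequency, calls per SNP, SNP spacing, fragments, heterozygous calls, outlying plants and SNPs with few missing calls. Flower traits were left aside. Software versions were matplotlib 3.10.9, pandas 2.3.3, scipy 1.17.1, numpy 2.4.6 and Python 3.11.15.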

Additional observations from a re-analysis of the deposited data

How the results depend on the processing

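The differences in heterozygosity of chromosomes 13, 14, 16, 17 and 19 from chromosomes 1 to 12 kept their sign and call under all 6 alternatives. Chromosome 15 changed sign with 1 SNP per fragment (-0.129 points), without the outlying plants (-0.461) and without SNPs heterozygous in at least 90% of plants (-0.420, an alternative added after the data were seen), and passed at a minor allele frequency of at least 0.1 (0.321) and with SNPs of few missing calls (0.355). Chromosome 18 lost its call without the outlying plants (-0.173). The difference between the sets was -0.113 points and lost its call with SNPs of few missing calls included. SNP density was 47.5 per Mb as fragments and 118.0 at a minor allele frequency of at least 0.1. Distortion was called at 62.4% of 5065 SNPs of all cross types by the parental columns, 39.4% of 20035 by the 2 most frequent classes and 21.3% of 2560 by the outlying pairs (added later). The LD difference at 5 to 50 kb was -0.000493 as a median, the opposite sign, and 0.0041 with 1 SNP per 50 kb (interval -0.00212 to 0.0103). At 5 to 10 Mb the values were 0.000835 and 0.00195 (interval -0.00159 to 0.0055). Blocks held 19.2% of SNPs at an r2 limit of 0.3, 2.93% at 0.8 and 75.3% within classes (added later). Without the outlying plants, 14 pairs of chromosomes passed in place of 105. The share with the best partner on the own chromosome was 49.5% without them and 86.7% within classes, both added later. The causes of these changes were not tested. Heterozygosity was compared within plants, but the libraries could not be paired by plate number. No paired analysis was possible because the plant columns carry no plate, and this concerns pairing by plate alone. No read depth was given, so how far reads limit precision was not tested.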

Other observations

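A further 833 SNPs with 2 base alleles on chromosomes 13 to 19 were missing in no more than 20% of plants, and these were spread unevenly, with 256 on chromosome 14, 187 on chromosome 16 and 5 on chromosome 19. Within 1 to 500 kb, over 56 plants, their mean r2 with each other was 0.0873 ± 0.0067, and with the 20095 SNPs described above it was 0.0209 ± 0.0018, against 0.183 ± 0.004 among those 20095 (jackknife SE). Their heterozygosity in the 60 plants was 24.4% ± 5.56, against 26.1% ± 3.94 at the 20095 SNPs (SD, n = 60 plants), higher in 23 plants, and the paired permutation test gave p = 0.0697. The 30 sparse progeny had 9006 calls at the 20095 SNPs, of which 1595 (17.7%) were heterozygous.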
